A study of Mus musculus with 16 samples.

Results

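The kidneys of female mice homozygous for the Klotho mutation were compared with those of female control mice. These are 8 of the 16 libraries of the series, chosen by sex and genotype as the labels give them, with 4 KlKl and 4 control females, and every gene of the deposited table was considered. All animals were C57Bl/6J mice, described as congenic. The 4 controls were heterozygous (+/Kl) with renal function given as healthy, so each carried 1 mutant allele. The 4 homozygotes (Kl/Kl, written KlKl here) were given as having renal disease. Controls 1 to 4 were 47, 47, 57 and 48 days old, and KlKl females 1 to 4 were 47, 47, 48 and 52 days old. Kidneys were frozen after perfusion and dissection, and polyadenylated RNA of the whole organ was sequenced. The labels do not state that each replicate is its own litter or batch, so p-values measure the spread between these samples.

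Kl encodes klotho, a membrane protein of the kidney tubule that binds FGF receptors and makes them responsive to the bone hormone FGF23. Through that complex FGF23 lowers phosphate reabsorption in the proximal tubule, restrains Cyp27b1, the enzyme that makes the active form of vitamin D, and induces Cyp24a1, the enzyme that degrades it. Mice without klotho are known for high phosphate and active vitamin D, soft tissue calcification and early ageing-like decline. The widely used mutant allele of this name arose from a transgene inserted upstream of the gene, with the coding sequence left in place; the labels used here do not describe the allele further.

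The 2 genes that passed on reads, Kl and Crabp1, are shown here with the 250 bases before their start, from RefSeq on build GRCm38.p6, both on the plus strand. The Kl window is chr5:150952357-150952606 and the Crabp1 window chr9:54764498-54764747. Capitals mark the GC box letters GGGCGG and, for the opposite strand, CCGCCC.
Kl: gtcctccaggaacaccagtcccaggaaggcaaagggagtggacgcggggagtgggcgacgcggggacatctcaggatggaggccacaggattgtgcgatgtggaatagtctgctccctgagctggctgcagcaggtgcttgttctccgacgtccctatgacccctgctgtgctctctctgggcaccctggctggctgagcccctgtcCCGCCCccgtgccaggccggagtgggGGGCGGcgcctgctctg
Crabp1: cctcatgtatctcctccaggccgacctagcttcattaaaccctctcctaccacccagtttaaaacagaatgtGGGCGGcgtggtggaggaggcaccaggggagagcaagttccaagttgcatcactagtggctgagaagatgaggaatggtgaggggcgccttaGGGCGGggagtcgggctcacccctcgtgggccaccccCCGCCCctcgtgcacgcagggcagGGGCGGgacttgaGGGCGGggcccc
The Kl window holds these letters at -17 to -12 and, on the opposite strand, at -43 to -38, counted from the start. The Crabp1 window holds 4 matches on the same strand and 1 on the opposite one. Of 32851 promoter windows of this length 32.7% hold at least 1 match on either strand.

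Recovered reads per female library numbered 8207788 to 14502054. Xist, transcribed from the inactive X chromosome, stood at 8.03 to 16.4 TPM (reads per gene length, scaled to a common library total) in all 8 libraries, and the Y-linked Ddx3y and Eif2s3y had at most 4 reads in any of them. Female control 3 stood apart from the rest in several ways. It had the fewest reads and was the oldest animal. Ribosomal RNA held 15.2% of its TPM against 3.32% to 6.13% in the other females, and mitochondrial genes held 30.7% against 38.6% to 45.1%. Its mt-Nd5, a mitochondrially encoded subunit of respiratory complex I, stood at 290 TPM against 1963 to 2492 in the others. Its median correlation with the other females over genes was 0.943, while theirs were 0.98 to 0.986. Results are therefore given with and without it. The share of TPM in pseudogenes was 37.4% ± 0.5 in KlKl and 36.0% ± 1.3 in control females (SD, n = 4 each; exact permutation test, two-sided, p = 0.0857), and without female control 3 the control share was 35.5% (p = 0.0286, the smallest p this design allows).

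**Figure D1:**
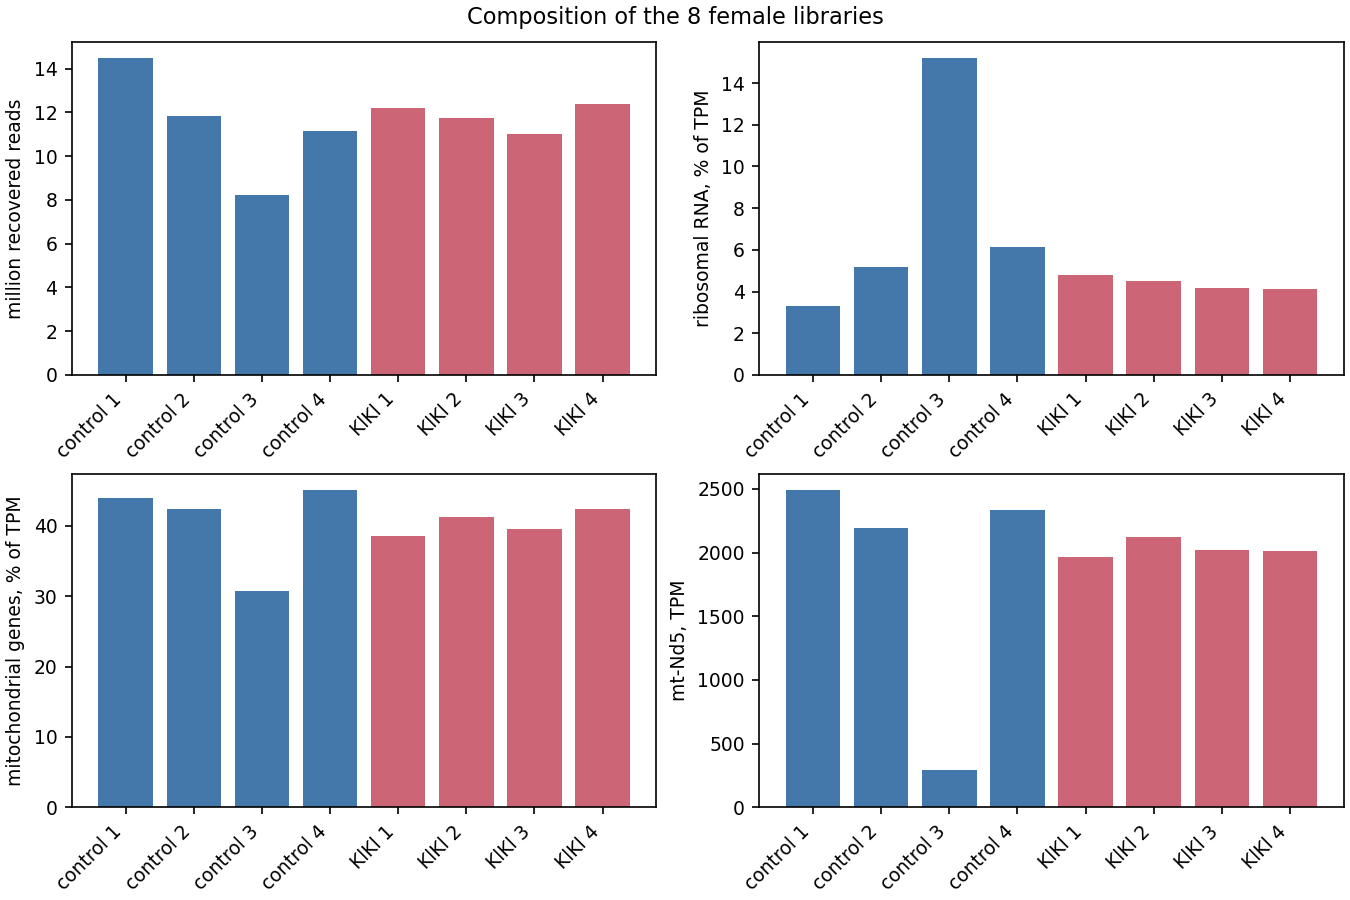
Recovered reads, ribosomal RNA and mitochondrial genes (each as a percentage of the library's TPM) and the TPM of mt-Nd5, 1 bar per library, controls in blue and KlKl in red. Control 3 has the fewest reads, the highest ribosomal share (15.2%) and the lowest mt-Nd5 (290 TPM).

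Kl was the gene that passed the test on the deposited values. The gene lies at chr5:150876072-150917283 on the plus strand of build mm39 (ENSMUSG00000058488). Its TPM was 3.56, 5.73, 2.24 and 2.04 in controls 1 to 4 and 0.198, 0.0763, 0.0728 and 0.222 in KlKl females 1 to 4. The groups did not overlap, and the lowest control, control 4, lay well above the highest KlKl library. Mean TPM was 3.39 ± 1.70 in controls and 0.142 ± 0.079 in KlKl (SD, n = 4), 23.8-fold less.

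On the log2(TPM + 1) scale, which understates differences of low genes, Kl fell by 1.87 (SE 0.23, limma adjusted p = 0.00448). It was the 1 gene of 8059 tested with an adjusted p under 0.05, a share of 0.0124%. Without female control 3 it fell by 1.99 (adjusted p = 0.00532), again as the 1 gene that passed, of 8015 (0.0125%). The call leans on the spread shared with the male libraries, since with the 8 female libraries alone the adjusted p was 0.0518.

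Reads tell the same of Kl without the pseudocount of 1. There were 2946, 3890, 1107 and 1411 reads of Kl in the controls and 130, 52, 44 and 165 in KlKl females. Some Kl reads were thus present in every KlKl library, at 4.00 to 13.3 RPM (recovered reads scaled to a common library total). Limma voom on recovered reads gave a log2 difference of -4.67 (SE 0.55, adjusted p = 0.00221), or -4.81 without female control 3 (adjusted p = 0.00593, where 2 of 17619 genes passed, 0.0114%). With the female libraries alone it was -4.66 (adjusted p = 0.00705), so on reads the call did not need the male libraries.

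The controls themselves differed in Kl. Controls 1 and 2, whose library names are of the series CFK, had 203 and 329 RPM. Controls 3 and 4, of the series CFdk, had 135 and 127. KlKl females 1 and 2 (CFK) had 10.7 and 4.42, and KlKl females 3 and 4 (CFdk) had 4.00 and 13.3. What the name series stand for is not stated.

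Crabp1, which encodes a cytosolic protein that binds retinoic acid, was the other gene that passed on reads. It lies at chr9:54672032-54680395 on the plus strand of mm39 (ENSMUSG00000032291). Its TPM stayed under the level needed for the test on deposited values. Recovered reads of Crabp1 were 0, 3, 0 and 7 in the controls and 91, 75, 59 and 82 in KlKl females. All 4 KlKl libraries lay far above all 4 controls, and 2 controls had no read, which allows up to 3 reads for counting error. The test on reads took genes with at least 10 reads in 4 libraries, a level no female control reached, so Crabp1 entered it only through the KlKl libraries, where it is high, and had to differ.

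Crabp1 averaged 0.22 ± 0.30 RPM in controls and 6.45 ± 0.86 in KlKl (SD, n = 4). It rose by 5.53 on the log2 scale of limma voom (SE 0.68, adjusted p = 0.0024). That fitted value depends on the small count the method adds to each library, since 2 controls are at 0. Without female control 3 it was 5.21 (adjusted p = 0.0193). Crabp1 passed without each of the 8 female libraries in turn, at 4.71 to 6.25. Since Crabp1 entered only through the libraries where it is high, these p-values and repeated passes are no separate support. Kl and Crabp1 were the 2 of 17648 genes that passed on reads (0.0113%).

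Other retinoid genes were looked at on reads too. Of 13 retinoid genes tested on reads, Crabp1 included, 2 had an unadjusted p under 0.05, both higher in KlKl, against 3.04% of all 17648 genes. Positive differences were found in 9 of the 13, against 71.8% of all genes. The median log2 difference of the 13 was 0.16 against 0.11 over all genes. Crabp1, which had to differ, is 1 of the 2 and of the 9 and enters this median. These values are therefore no support for a difference of the list. The other of the 2 was Stra6, the membrane receptor for retinol-binding protein, with 27, 28, 5 and 41 reads in controls and 45, 44, 59 and 82 in KlKl females. These counts do not overlap, but the groups nearly touch for the depth of the libraries. Control 4 had 41 of 11146678 reads and KlKl female 1 had 45 of 12199417. Voom gave Stra6 1.30 (SE 0.47, adjusted p = 0.912), or 0.91 without female control 3. Stra6 overlaps Ccdc33 on the other strand, and although the library kit keeps strand, it is not stated whether the counting used it. Dhrs3, a retinaldehyde reductase, differed by 0.06 on the log2(TPM + 1) scale (SE 0.18), with overlapping groups.

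**Figure D2:**
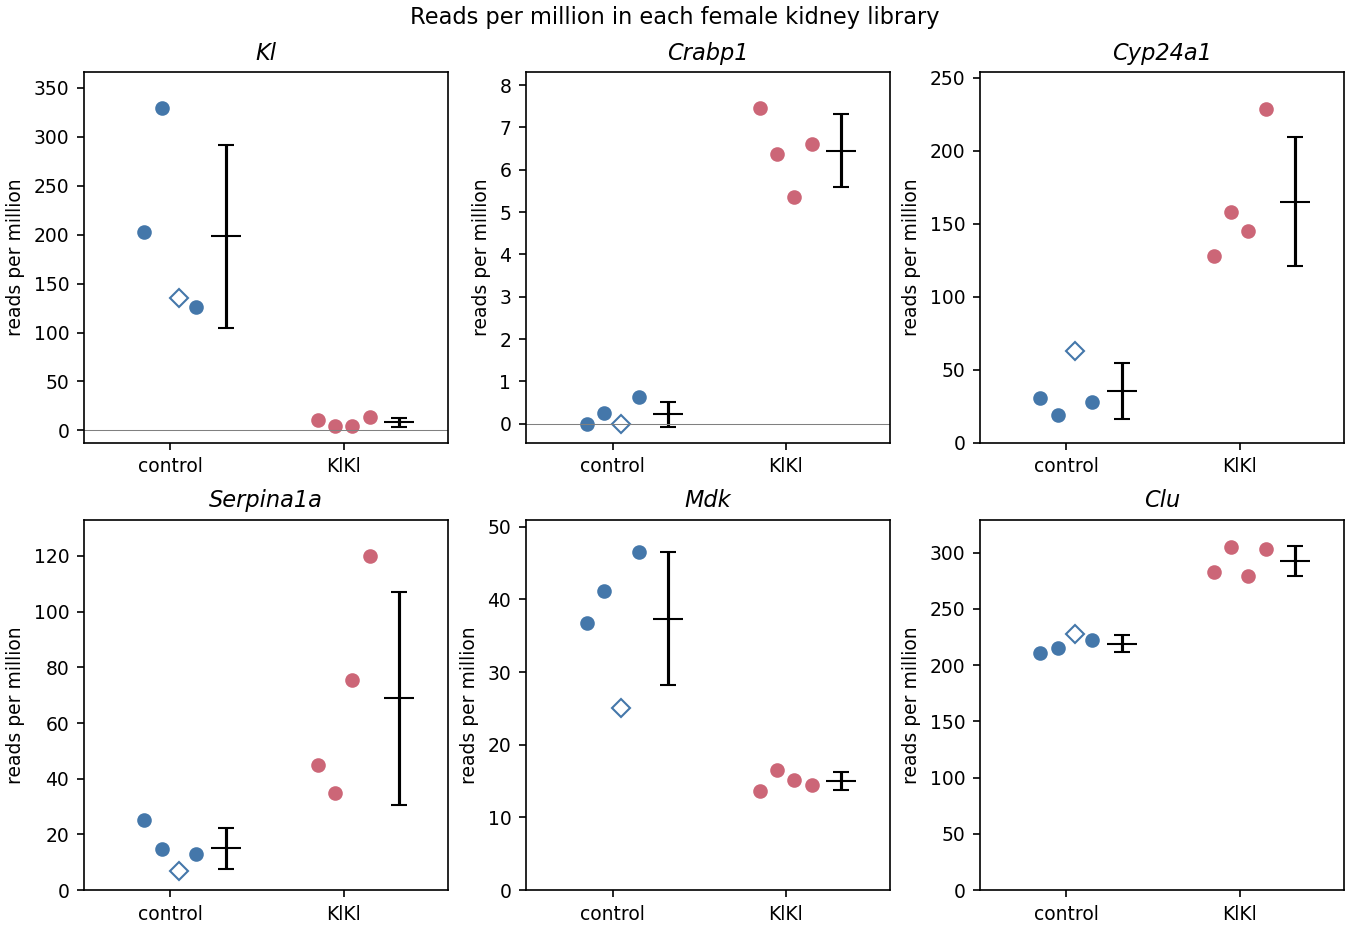
Level of 6 genes, in RPM, in each female library, controls in blue with control 3 as an open diamond, KlKl in red, with the mean and SD of each group in black. The groups do not overlap in any panel, which the rule for naming by size required of Cyp24a1, Serpina1a and Mdk. Kl and Mdk are lower in KlKl and the other 4 genes higher.

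Beyond these 2 genes the comparison gave many small differences in 1 direction and few large ones. An unadjusted p under 0.05 was reached by 349 genes higher in KlKl (4.33% of 8059) and 27 lower (0.335%), together 376 (4.67%). The groups did not overlap in 225 genes higher (2.79%) and 12 lower (0.149%). Positive differences made up 82% of all tested genes, and the median difference was 0.11 (79.8% and 0.08 without female control 3).

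This excess of higher genes moved with the scaling and with female control 3. After median-ratio scaling the median was 0.00 and the counts at an unadjusted p under 0.05 were 159 higher (1.97%) and 129 lower (1.6%). Without female control 3 they were 191 higher (2.38% of 8015) and 30 lower (0.374%), together 2.76%, while 502 (6.23%) were higher without overlap, which 3 controls reach more easily than 4. Small positive values below are therefore to be read against a median of 0.11, and counts of positive members against 82%. Voom on reads gave 537 higher (3.04%) and 82 lower (0.465%), together 3.51%, or 406 (2.3%) and 108 (0.613%) without female control 3. In whole-kidney RNA fewer cells of a type and less RNA per cell cannot be told apart.

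**Figure D3:**
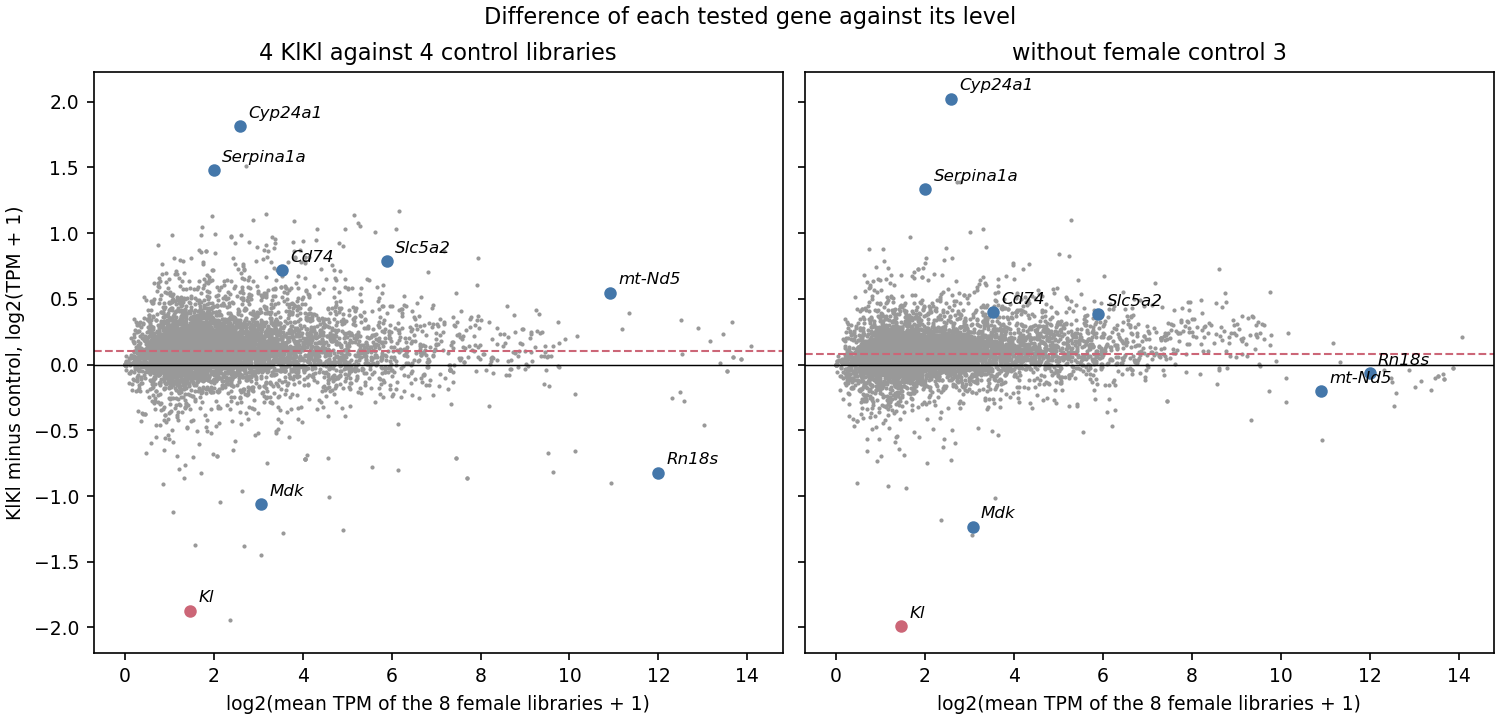
Difference of each of the 8059 tested genes, KlKl minus control in log2(TPM + 1), against its level, log2 of the mean TPM plus 1, with all 8 libraries (left) and without female control 3 (right; 8015 genes). The dashed line is the median difference, 0.11 and 0.08. Kl, in red, lies at -1.87 and -1.99, and Slc5a2, Cd74, Rn18s and mt-Nd5 lie nearer the median on the right.

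The vitamin D genes included the largest positive difference on the TPM scale among named genes. Cyp24a1, the enzyme that degrades active vitamin D, stood at 1.54, 0.958, 2.99 and 1.29 TPM in controls 1 to 4 and at 6.82, 7.79, 7.53 and 10.9 in KlKl females. Every KlKl library exceeded every control, and the highest control was control 3. The mean was 1.70 ± 0.90 TPM in controls and 8.26 ± 1.81 in KlKl (SD, n = 4), 4.87-fold more.

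The difference of Cyp24a1 was 1.81 on the log2(TPM + 1) scale (SE 0.59, limma adjusted p = 0.727), and it did not pass. The standard error pools the spread of all 16 libraries, and in male KlKl kidneys Cyp24a1 stood at 48.8 ± 31.7 TPM (SD, n = 4). Without male KlKl replicate 3 the adjusted p was 0.00398, and with library weights 0.00896. With the 7 female libraries other than control 3 fitted alone the difference was 2.02 (adjusted p = 0.00454). Cyp24a1 overlaps Pfdn4 on the other strand.

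Cyp27b1, which makes the active hormone, stood at 1.2, 0.574, 0.105 and 0.438 TPM in controls and 1.07, 1.22, 2.18 and 2.53 in KlKl females. Control 1 lay within the KlKl range. Its difference was 0.81 (SE 0.31, adjusted p = 0.727), with 6 reads of Cyp27b1 in female control 3, or 0.65 without that library. The receptor gene Vdr stood at 1.39 to 1.88 TPM in controls and 1.94 to 2.35 in KlKl, without overlap, and differed by 0.19 (SE 0.14).

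Of 8 tested vitamin D genes 7 had positive differences, 2 an unadjusted p under 0.05 (Cyp24a1 and Cyp27b1) and 3 no overlap, with a median of 0.20, or 0.15 without female control 3. Over all genes 82% were positive, near the share here, while 4.33% were higher with such a p and 2.79% higher without overlap. The one other without overlap was Rxra, the partner receptor of Vdr, at 0.425 to 0.470 TPM in controls and 0.488 to 0.655 in KlKl. The mitochondrial hydroxylase Cyp27a1 differed by 0.22 (SE 0.17). Lrp2, which encodes megalin, the receptor that takes up filtered vitamin D carrier, had -0.23 (SE 0.22) with all libraries and 0.03 without female control 3, and its partner Cubn had 0.08 (SE 0.08).

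Members of the klotho and FGF list other than Kl showed small differences on TPM. Of 7 tested there, 1 had an unadjusted p under 0.05, Kl itself, where 0.335% of all genes were lower with such a p. The list median was 0.06. Of 13 tested on reads, 2 were lower with such a p, Kl included, against 0.465% of all genes, and 0 higher. Without female control 3 the counts on reads were 1 lower and 1 higher, against 0.613% and 2.3%. Among the receptors, Fgfr3 differed by 0.06 (SE 0.16) and Fgfr4 by 0.24 (SE 0.15), or by -0.09 and 0.07 without female control 3. Egr1 and Dusp6, genes that FGF signals induce in many cells, differed by 0.38 (SE 0.32) and -0.17 (SE 0.27). Fgf23 had no read in any control and 2 reads in KlKl female 3 alone. Klb, the co-receptor related to klotho, had at most 5 reads in a library.

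Phosphate genes gave 1 member of 5 with an unadjusted p under 0.05, where 4.33% of all genes were higher with such a p. This was Pth1r, the parathyroid hormone receptor. Pth1r stood at 8.41, 8.85, 8.76 and 6.82 TPM in controls and 10.8, 10.0, 11 and 10.4 in KlKl females. The groups did not overlap, where 2.79% of all genes were higher without overlap. The difference was 0.33 (SE 0.12, adjusted p = 0.727), or 0.36 without female control 3. After median-ratio scaling Pth1r had 0.18 (unadjusted p = 0.0952).

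The main sodium-phosphate cotransporters of the proximal tubule did not part the groups. Slc34a1 stood at 131, 133, 67 and 109 TPM in controls and 127 to 140 in KlKl, with a difference of 0.31 (SE 0.19) that was 0.09 without female control 3. Slc34a3 had 0.21 (SE 0.20), or -0.04 without that library. Their scaffold Pdzk1 had 0.23 (SE 0.16). The list median was 0.23, or 0.09 without female control 3.

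Distal calcium genes were mostly below the level for the test. S100g, the small calcium-binding protein calbindin-D9k, which active vitamin D induces, stood at 234, 230, 566 and 337 TPM in controls and 397 to 469 in KlKl females. Only control 3 exceeded the KlKl range. The difference of S100g was 0.45 (SE 0.26, adjusted p = 0.727) with all libraries and 0.72 (unadjusted p = 0.00342) without female control 3.

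The apical calcium channel gene Trpv6 had 26, 22, 15 and 16 reads in controls and 36, 39, 25 and 35 in KlKl, and voom gave 0.70 (SE 0.24, adjusted p = 0.912). On average that was 1.73 RPM in controls and 2.84 in KlKl. The related channel Trpv5 had 0.18 on reads (SE 0.22), with 58 to 144 reads in controls and 80 to 158 in KlKl, which overlap. Calb1, calbindin-D28k, differed by 0.13 (SE 0.29). Of 13 calcium and magnesium genes tested on reads 10 were positive and 1, Trpv6, had an unadjusted p under 0.05, where 71.8% of all genes were positive and 3.04% higher with such a p, so the positive count is near the background.

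Mineralisation genes had positive differences in 4 of 4 tested members (82% of all genes were positive), with a median of 0.31, or 0.20 without female control 3, and none had an unadjusted p under 0.05. Mgp, matrix Gla protein, an inhibitor of calcification, stood at 33.2, 30.7, 34.9 and 23 TPM in controls and 38.9 to 43.4 in KlKl, without overlap (0.43, SE 0.23). Spp1, osteopontin, stood at 175 to 253 in controls and 261 to 289 in KlKl, also without overlap (0.37, SE 0.21), as were 2.79% of all genes. Sparc and the phosphatase gene Alpl had 0.25 (SE 0.15) and 0.19 (SE 0.18), the latter 0.00 without female control 3.

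Serpina1a, which encodes alpha-1 antitrypsin, a plasma inhibitor of neutrophil elastase, had the next largest positive difference among named genes. Its TPM was 1.82, 1.07, 0.485 and 0.856 in controls and 3.46, 2.50, 5.68 and 8.27 in KlKl females. The groups did not overlap, and KlKl females 3 and 4 were the highest. The mean was 1.056 ± 0.56 in controls and 4.98 ± 2.57 in KlKl (SD, n = 4), 4.71-fold more. The difference was 1.48 (SE 0.34, limma adjusted p = 0.727), or 1.33 without female control 3, and 2.10 on reads (adjusted p = 0.912).

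Serpina1d, a near-identical copy, differed by 0.99 (SE 0.37), with controls at 1.45 to 5.89 TPM and KlKl at 3.94 to 8.24, which overlap. Reads may be split between such copies, so the values of each are uncertain. Among 6 tested genes of plasma-type secreted proteins 6 were positive, against 82% of all genes, and 2 had an unadjusted p under 0.05, these copies, against 4.33% of all genes. Apoe, apolipoprotein E, had 0.55 (SE 0.55), and Fga, fibrinogen alpha chain, 0.21 (SE 0.23). The list median of 0.38 was 0.15 without female control 3. Alb, the liver's albumin gene, did not move with Serpina1a, with 171, 51, 29 and 37 reads in controls and 22 to 33 in KlKl.

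Among genes lower in KlKl, 2 met the rule for naming by size, Kl and Mdk. Mdk encodes midkine, a heparin-binding growth factor of developing and injured tissue. It stood at 10.6, 11.8, 6.89 and 12.4 TPM in controls and at 4.19, 4.73, 4.57 and 4.01 in KlKl females. The KlKl values lay close together, and the lowest control was control 3. Means were 10.4 ± 2.5 and 4.37 ± 0.33 TPM (SD, n = 4), 2.39-fold less in KlKl.

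The difference of Mdk was -1.06 (SE 0.28, adjusted p = 0.727), or -1.23 without female control 3, and on reads -1.30 (adjusted p = 0.912). Fitted on the 7 female libraries other than control 3 alone, Mdk passed with -1.23 (adjusted p = 0.00454). Among the alternatives run, that was the one in which Mdk passed.

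Anxa13, a membrane-binding annexin gene of epithelial cells, was chosen after its values were seen, as the gene next after Kl and Crabp1 in rank of p on reads. It had 57, 37, 39 and 51 reads in controls and 18, 16, 12 and 23 in KlKl females, without overlap. Voom gave -1.46 (SE 0.28, unadjusted p = 6.66e-05, adjusted p = 0.392), so it did not pass, and -1.39 without female control 3. Anxa13 averaged 4.09 RPM in controls and 1.45 in KlKl.

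With all libraries, antigen presentation genes held more members with a small p than any other list, an order that was lost without female control 3, where ribosomal protein and macrophage lists had 3 each. Of 9 tested, 9 were positive (82% of all genes were) and 5 had an unadjusted p under 0.05, all higher, where 4.33% of all genes were. The groups did not overlap in 1 member, where 2.79% of all genes were higher without overlap, and the median was 0.35. Without female control 3 the median was 0.28 and 2 had such a p, where 2.38% of all genes had. None passed after adjustment over all genes.

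Cd74, the invariant chain that guides class II molecules, stood at 10.6, 10.1, 3.36 and 8.31 TPM in controls and 14.8, 11.6, 12.8 and 12.9 in KlKl females. The groups did not overlap, and control 3 was far below the other controls. Its difference was 0.72 (SE 0.25, adjusted p = 0.727) with all libraries and 0.40 without control 3. The class II chain genes H2-Aa, H2-Eb1 and H2-Ab1 differed by 0.40 (SE 0.15), 0.42 (SE 0.15) and 0.35 (SE 0.14), with overlapping groups. The class I gene H2-K1 differed by 0.36 (SE 0.15), from 26.3 to 35.0 TPM in controls and 33.8 to 46.3 in KlKl. After median-ratio scaling H2-Aa had 0.25 (unadjusted p = 0.0665) and H2-K1 0.19 (unadjusted p = 0.0968).

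Macrophage and dendritic cell markers also had positive differences. Without female control 3 their median rose, while that of the antigen presentation genes fell from 0.35 to 0.28. All 8 tested of 14 listed were positive, 2 had an unadjusted p under 0.05 and 3 had no overlap, with a median of 0.27, or 0.34 without female control 3. Over all genes 82% were positive, 4.33% were higher with such a p and 2.79% higher without overlap, so the positive count is near the background. Their summed level was 20.9 to 28.6 TPM in controls and 34.5 to 36.6 in KlKl, without overlap, and no marker of this list was at 0 in any female library. Cd74 is itself in that list. The part of these cells in the antigen presentation values was not tested.

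Lyz2, lysozyme of macrophages, stood at 4.08, 2.60, 2.79 and 2.24 TPM in controls and 4.57, 6.28, 6.13 and 6.30 in KlKl females. The groups came near each other in control 1 and KlKl female 1 but did not overlap. The difference was 0.81 (SE 0.29, adjusted p = 0.727), or 0.80 without female control 3. Tyrobp, a signalling adaptor of myeloid cells, stood at 0.560 to 1.13 TPM and 1.25 to 1.43, also without overlap (0.29, SE 0.14).

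Other macrophage markers parted the groups less. C1qa, C1qb and C1qc, the chains of complement C1q, differed by 0.19 (SE 0.18), 0.25 (SE 0.15) and 0.33 (SE 0.19). Csf1r, the receptor for the macrophage growth factor, differed by 0.02 (SE 0.10). Adgre1, the F4/80 antigen, had 20 to 54 reads in controls and 34 to 48 in KlKl. Fcgr3, an antibody Fc receptor, had 34, 22, 21 and 41 reads and 39, 40, 49 and 79 (voom 0.73, SE 0.29, adjusted p = 0.912).

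Lymphocyte and neutrophil markers were near the lower limit. Of 8 T cell and 5 matched neutrophil markers 0 reached the level for the test, and Mpo, neutrophil myeloperoxidase, had no read in any female. Summed T cell markers came to 0.523 to 0.998 TPM in controls and 0.867 to 1.04 in KlKl, which overlap. Summed neutrophil markers came to 0.321 to 0.469 and 0.671 to 1.34, which do not. S100a8, a calprotectin subunit, had 4, 5, 2 and 4 reads in controls and 7, 16, 9 and 11 in KlKl (voom 1.31, SE 0.95). Igkc, an antibody light chain gene, stood at 5.13 to 7.61 TPM in controls and 5.91 to 14.7 in KlKl.

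Among chemokines and cytokines 4 of 14 were tested on TPM, all with positive differences, as had 82% of all genes. Cxcl10, an interferon-induced chemokine that draws T cells, stood at 1.39, 0.619, 1.32 and 0.899 TPM in controls and 1.87, 1.69, 2.09 and 1.45 in KlKl females. The groups lay side by side without overlap, and the difference was 0.45 (SE 0.16, adjusted p = 0.727), or 0.51 without female control 3. Cxcl10 lies within Art3 on the other strand. Cxcl16 differed by 0.05 (SE 0.20). Il1b, interleukin 1 beta, had 5 to 14 reads in controls and 13 to 24 in KlKl, which overlap (voom 0.87, SE 0.39). The 10 tested interferon response genes had 0 with an unadjusted p under 0.05 and a median of 0.14.

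Tubule injury genes were positive in 9 of 9 members tested on TPM (82% of all genes were, or 79.8% without female control 3), with a median of 0.26 with and without female control 3. On reads 14 of 16 were positive and 2 negative, where 71.8% of all genes were positive. There 1 was higher with an unadjusted p under 0.05 and 1 lower, against 3.04% and 0.465% of all genes. Without female control 3 these counts on reads were 2 and 0, against 2.3% and 0.613%. Clu, clusterin, a secreted chaperone made by injured tubules, was the 1 member with such a p on TPM, against 4.33% of all genes. It stood at 11.7, 11.8, 11.9 and 11.3 TPM in controls and 16.6, 16.6, 16 and 15.9 in KlKl females. Both groups were tight and did not overlap. The difference of 0.45 (SE 0.15, adjusted p = 0.727) was 0.46 without control 3 and 0.42 on reads, but 0.29 (unadjusted p = 0.0892) after median-ratio scaling.

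Havcr1, which encodes the injury marker KIM-1 of the proximal tubule, stayed very low. It had 12, 12, 11 and 2 reads in controls and 22, 30, 20 and 61 in KlKl females, without overlap, and voom gave 1.85 (SE 0.93, adjusted p = 0.912). Lcn2, neutrophil gelatinase-associated lipocalin, stood at 1.21, 1.31, 0.530 and 0.510 TPM in controls and 1.65, 1.79, 1.22 and 1.15 in KlKl (0.40, SE 0.28), which overlap. The filament genes Vim and Krt18 differed by 0.26 (SE 0.13) and 0.36 (SE 0.22), and Krt8 by 0.01 (SE 0.17). Cdkn1a, the cell cycle inhibitor p21, had 69 to 90 reads in controls and 94 to 139 in KlKl (voom 0.43, SE 0.24).

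Matrix genes were positive in 6 of 6 members tested on TPM, near the 82% of all genes, with a median of 0.16, or 0.09 without female control 3, and 0 had an unadjusted p under 0.05. On reads 16 of 18 were positive and 2 negative, where 71.8% of all genes were positive. There 1 had such a p, Mmp2 (voom 0.84, SE 0.33, adjusted p = 0.912), where 3.04% of all genes were higher with one. Without female control 3 it was 0 on reads. The collagen gene Col1a1 stood at 1.14 to 1.55 TPM in controls and 1.69 to 1.84 in KlKl, without overlap (0.19, SE 0.12). Col1a2, which pairs with it in type I collagen, differed by 0.04 (SE 0.11). Acta2, smooth muscle actin, differed by 0.32 (SE 0.17), or 0.09 without female control 3. Among mural cell markers Rgs5 had 0.24 (SE 0.10; 0.17, unadjusted p = 0.0512, after median-ratio scaling) and Tagln 0.29 (SE 0.15).

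**Figure D4:**
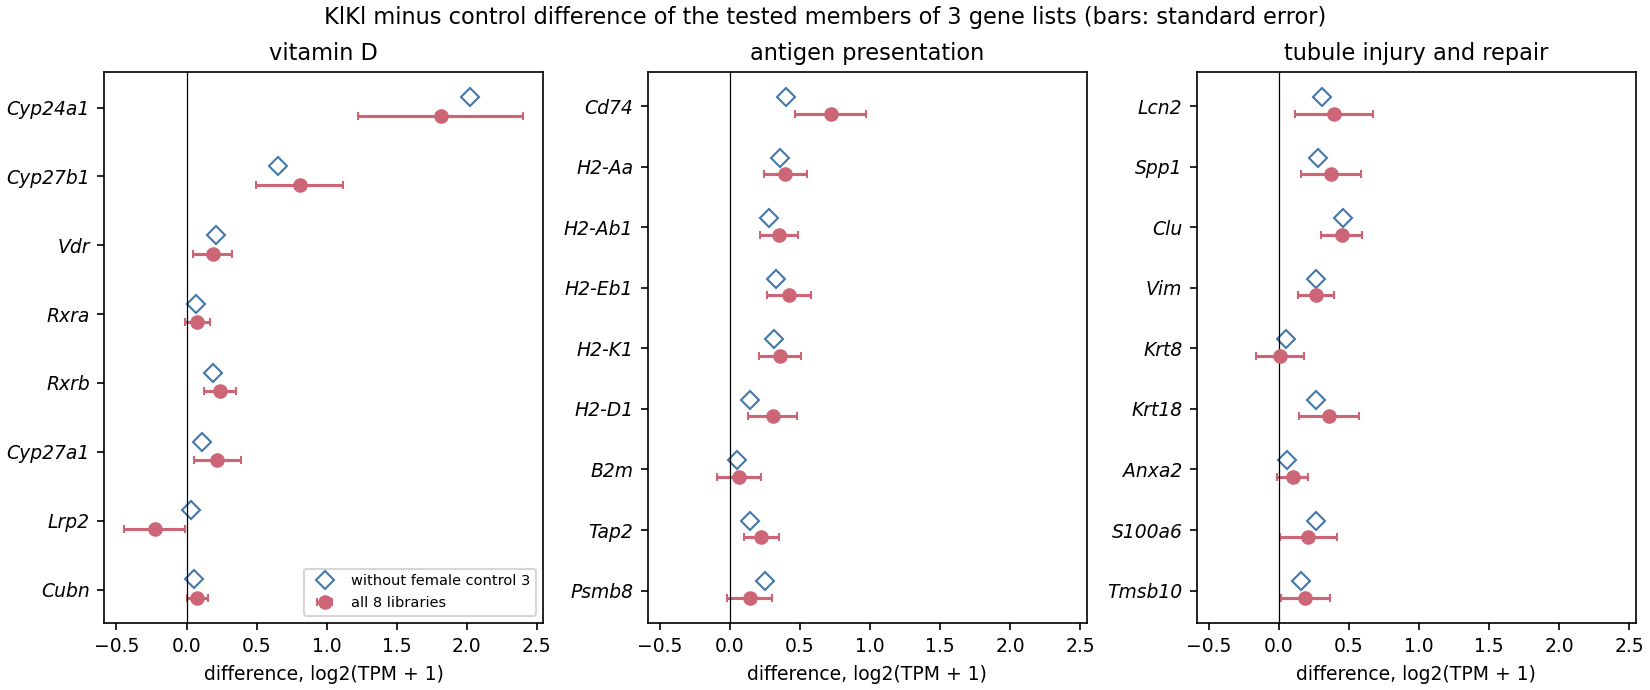
Difference, KlKl minus control in log2(TPM + 1), of each tested member of 3 gene lists, red points with standard errors for all 8 libraries and open blue diamonds without female control 3. Cyp24a1 lies at 1.81 and 2.02, Cd74 moves from 0.72 to 0.40, and Lrp2 from -0.23 to 0.03.

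Among transport genes of the proximal tubule 1 of 16 had an unadjusted p under 0.05 on TPM, where 4.33% of all genes were higher with such a p. This was Slc5a2, the glucose cotransporter SGLT2. It stood at 55.8, 57.2, 17.3 and 50.9 TPM in controls and 69.7, 66.9, 73.7 and 76.4 in KlKl females. The groups did not overlap, where 2.79% of all genes were higher without overlap, but control 3 lay at a level far below the other controls. The difference was 0.79 (SE 0.32, adjusted p = 0.727) with control 3 and 0.39 (unadjusted p = 0.0884) without it. Slc2a2, the basolateral glucose transporter GLUT2, differed by 0.24 (SE 0.12). Slc13a1, a sulphate cotransporter, had -0.30 (SE 0.16) on TPM. On reads it had -0.60 (SE 0.22, voom unadjusted p = 0.0124, adjusted p = 0.912). There it was the 1 member of 16 lower with a p under 0.05, against 0.465% of all genes, and 1 was higher, against 3.04%. The list median was 0.12, or 0.07 without female control 3.

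Few distal and collecting duct genes parted the groups. Of 16 thick ascending limb and distal tubule genes 0 had an unadjusted p under 0.05, with a median of 0.11 that was 0.02 without female control 3. Umod, uromodulin, differed by 0.16 (SE 0.18), the salt cotransporter gene Slc12a1 by 0.07 (SE 0.18), the growth factor gene Egf by 0.30 (SE 0.20) and Pvalb by -0.25 (SE 0.20). Aqp2, the vasopressin-regulated water channel, had 0.44 (SE 0.43), or 0.01 without female control 3, and the 7 tested principal cell genes had a median of 0.07, or -0.06. Of 9 intercalated cell genes 9 were positive, near the 82% of all genes, and 1 had an unadjusted p under 0.05, against 4.33%. This was Atp6v1b1, a proton pump subunit (0.32, SE 0.15), with 0.16 without female control 3 and 0.21 (unadjusted p = 0.113) after median-ratio scaling.

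Organic ion transporters split evenly, with 8 of 16 positive and a median of -0.02. Slc22a7, an organic anion transporter, stood at 13.8, 19.6, 23.4 and 4.31 TPM in controls and 9.66, 12, 2.56 and 1.29 in KlKl females, which overlap (-1.28, SE 0.80, adjusted p = 0.727). In both groups replicate 4 was the lowest. Amino acid transporters had a median of 0.05 and glutathione transferases one of 0.06, with 0 members of either at an unadjusted p under 0.05.

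Genes of gluconeogenesis were positive in 10 of 10 tested members with a median of 0.13, both near the values over all genes (82% and 0.11). Pck1, the enzyme that commits to glucose and ammonia production in the proximal tubule, stood at 124, 83.5, 51.9 and 85.8 TPM in controls and 198, 119, 109 and 130 in KlKl females. Only control 1 reached the KlKl range. The difference of Pck1 was 0.71 (SE 0.32, adjusted p = 0.727), or 0.49 without female control 3 and 0.54 (unadjusted p = 0.0925) after median-ratio scaling, and G6pc differed by 0.11 (SE 0.23).

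Fatty acid oxidation genes were positive in 15 of 16, near the 82% of all genes, with a median of 0.21, or 0.18 without control 3, and 0 had an unadjusted p under 0.05. Cholesterol synthesis genes went the other way in 8 of 12, with a median of -0.06. Sqle, squalene epoxidase, had -0.23 (SE 0.15).

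Mitochondrially encoded genes turned with female control 3. With all libraries 11 of 13 were positive (median 0.18), near the 82% of all genes. Without it 0 were, against 79.8% of all genes, with a median of -0.11. There 2 had an unadjusted p under 0.05, both lower, where 0.374% of all genes were. mt-Nd1 had 0.01 (SE 0.15) and then -0.19 (unadjusted p = 0.0167), and mt-Nd2 had 0.08 (SE 0.28) and then -0.31 (unadjusted p = 0.0383). Nuclear oxidative phosphorylation genes were positive in 17 of 19 (median 0.12, or 0.11), near the 82% of all genes, with Cox4i1 at 0.30 (SE 0.13), or 0.13 (unadjusted p = 0.212) after median-ratio scaling.

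Cytosolic ribosomal protein genes moved the other way with that library. Their median was 0.11 over 18 genes with all libraries and 0.30 without control 3. The number higher at an unadjusted p under 0.05 went from 1 to 3, against 4.33% and 2.38% of all genes. Rpl4 stood at 52.1 to 73.4 TPM in controls and 70.8 to 96.7 in KlKl (0.42, SE 0.17), or 0.25 (unadjusted p = 0.0649) after median-ratio scaling, and Rpl3 had 0.24 (SE 0.15).

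**Figure D5:**
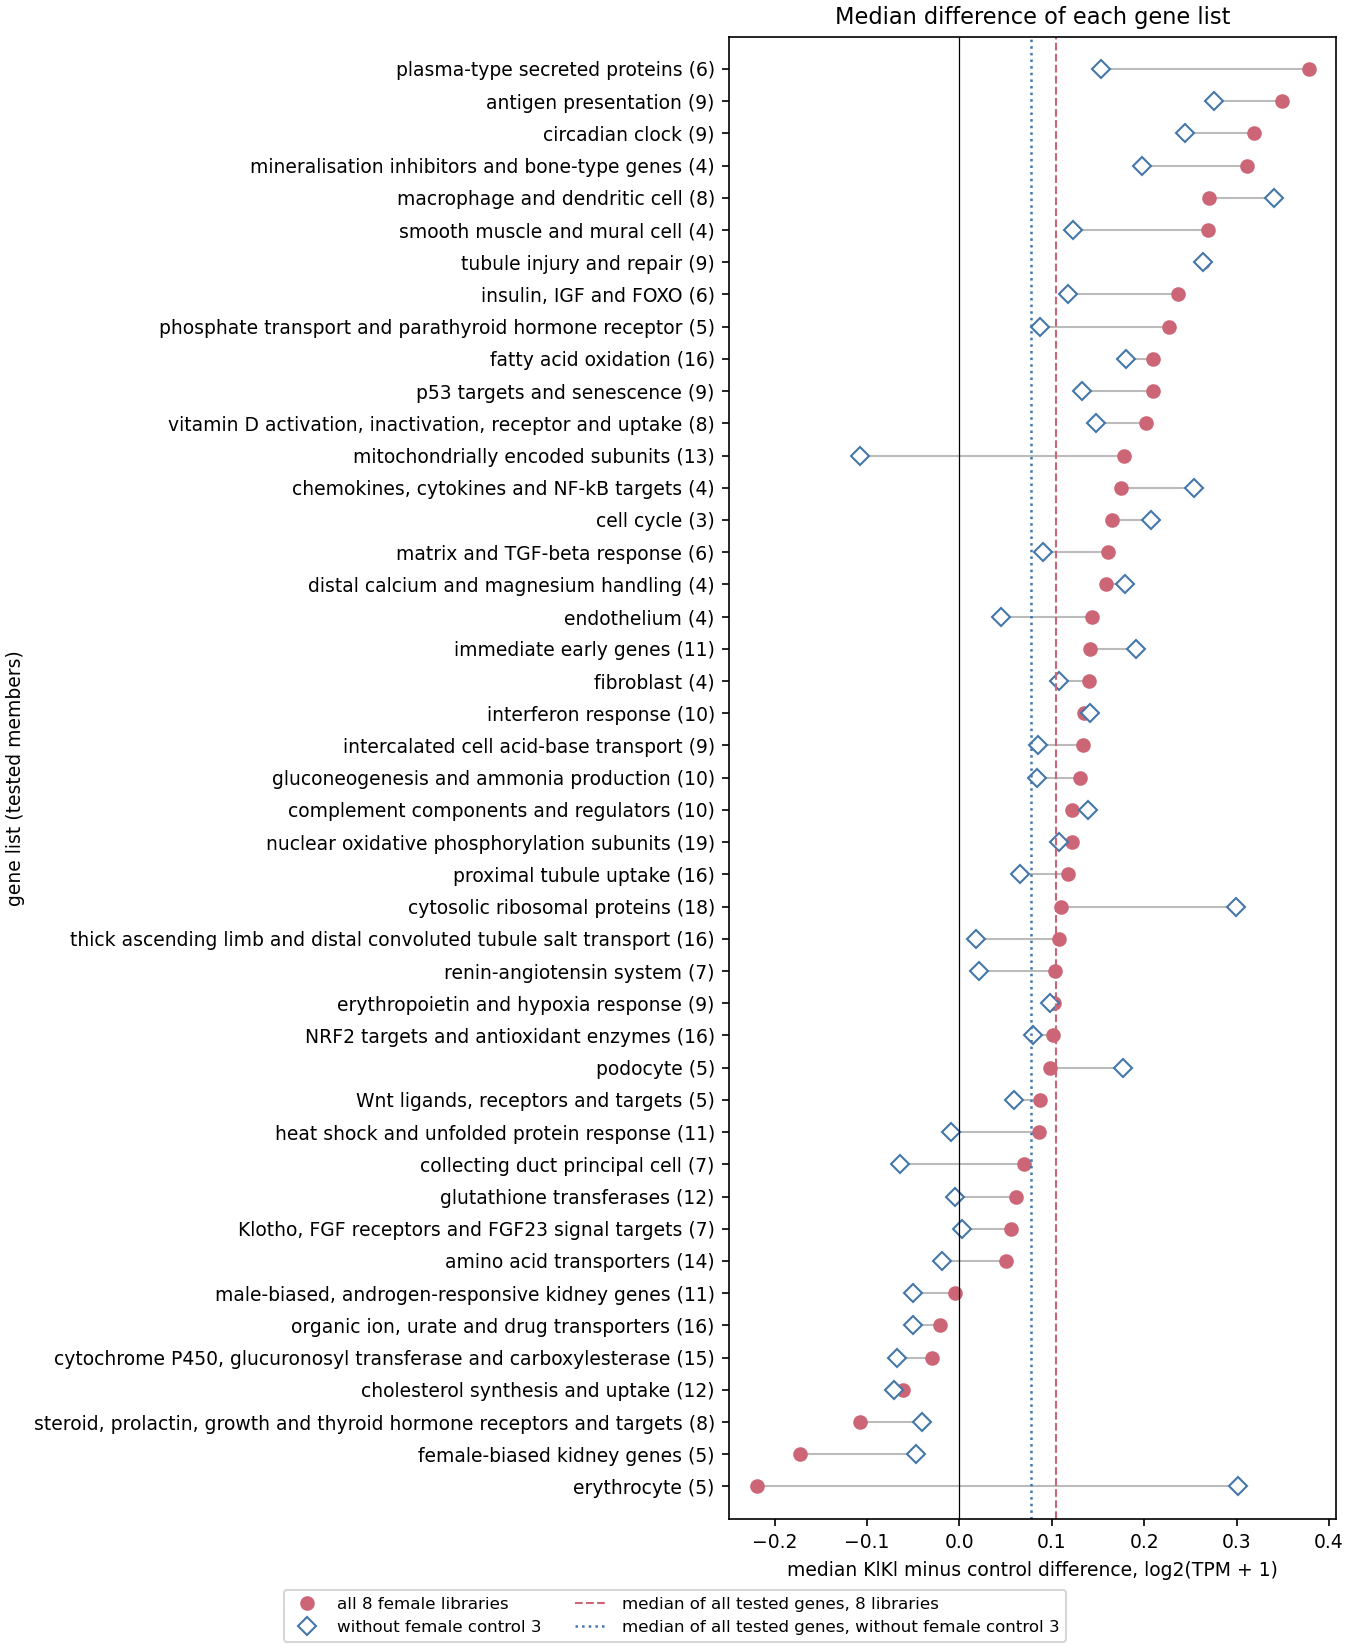
Median difference of each gene list with at least 3 tested members, KlKl minus control in log2(TPM + 1), with all 8 libraries (red) and without female control 3 (open blue); vertical lines mark the medians of all tested genes, 0.11 and 0.08. Mitochondrially encoded subunits move from 0.18 to -0.11 and ribosomal proteins from 0.11 to 0.30.

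Sex-biased and steroid-regulated genes were mixed. Akr1c18, a progesterone-degrading enzyme, stood at 2.01, 2.60, 4.23 and 0.383 TPM in controls and 1.31, 1.15, 0.231 and 0.175 in KlKl females. Control 4 fell among the KlKl values. Its difference was -0.86 (SE 0.32, adjusted p = 0.727), or -0.59 without female control 3. Cyp2a4, a steroid hydroxylase, stood at 14.3, 14.5, 13.4 and 2.50 TPM and at 5.51, 6.01, 1.01 and 1.34 (-1.45, SE 0.73), with control 4 again inside the KlKl range.

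Kap, the androgen-regulated kidney protein, stood at 1777, 2375, 4607 and 1487 TPM in controls and 640 to 1922 in KlKl, which overlap (-0.90, SE 0.54). Prlr, the prolactin receptor, differed by -0.17 (SE 0.17), or -0.04 without control 3. The female-biased list had a median of -0.17 over 5 genes, or -0.05 without control 3, and the male-biased list one of -0.01 over 11.

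Clock genes were positive in 9 of 9 tested members, where 82% of all genes were, with a median of 0.32, or 0.24 without female control 3. Bhlhe41, a repressor in the clock, was the 1 member with an unadjusted p under 0.05, against 4.33% of all genes, and stood at 0.511, 0.611, 0.653 and 0.673 TPM in controls and 1.19, 0.773, 0.983 and 1.12 in KlKl females, without overlap (0.32, SE 0.13). Dbp, Nr1d1 and Per1 differed by 0.32 (SE 0.21), 0.35 (SE 0.29) and 0.21 (SE 0.27), with overlapping groups. The labels used here give no time of day of sampling.

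The p53 list was positive in 9 of 9, near the 82% of all genes, with a median of 0.21, or 0.13 without control 3, and 0 had an unadjusted p under 0.05; Gdf15, a stress cytokine, had 0.27 (SE 0.17). Antioxidant genes had a median of 0.10, with Hmox1, heme oxygenase, at 0.37 (SE 0.20) and Nqo1 at 0.01 (SE 0.14). Renin-angiotensin genes had 0.10, with Ren1 at 0.33 (SE 0.47). Erythrocyte genes varied widely within groups. Hba-a1, an alpha globin gene, stood at 0.558, 12.6, 20.5 and 18.1 TPM in controls and 2.96 to 10.5 in KlKl (-0.49, SE 0.78).

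In the other lists of tissue responses 0 members tested on TPM had an unadjusted p under 0.05. The medians were 0.12 over 10 complement genes, 0.24 over 6 of insulin-like growth factor signalling, 0.09 over 5 of Wnt signalling, 0.10 over 9 of the hypoxia response, 0.14 over 11 immediate early genes, 0.09 over 11 chaperones and 0.16 over 3 cell cycle genes. They were negative over 8 hormone receptor genes (-0.11) and 15 of xenobiotic metabolism (-0.03). On reads 1 of 14 complement genes was lower with such a p (Cfi, voom -0.61, SE 0.21, adjusted p = 0.912). So were 1 of 15 chaperones and 1 of 16 of xenobiotic metabolism, where 0.465% of all genes were lower. Higher on reads with such a p were 1 of 12 hypoxia genes and 1 of 15 immediate early genes, against 3.04% of all genes. The latter was Atf3 (voom 0.84, SE 0.30, adjusted p = 0.912). Epo, erythropoietin, had 1 read, in KlKl female 3.

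Markers of other cells varied within both groups. Medians were 0.14 over 4 fibroblast, 0.14 over 4 endothelial, 0.10 over 5 podocyte, 0.27 over 4 mural, -0.22 over 5 erythrocyte, 0.31 over 2 B cell, 0.01 over 2 adipocyte and -0.16 over 2 liver markers, and 0 adrenal or urothelial markers reached the level for the test. Summed liver markers came to 4.95 to 11.2 TPM in controls and 6.33 to 9.17 in KlKl, and adrenal ones to 0.307 to 0.391 and 0.246 to 0.419, which overlap.

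The remaining genes named by size were higher in KlKl, and none passed. Their lack of overlap was required by the naming rule, and 2.79% of all genes were higher without overlap. Ptgds, a prostaglandin D synthase, stood at 2.00, 1.65, 0.825 and 2.50 TPM in controls and 4.96, 5.56, 4.41 and 2.73 in KlKl females (0.99, SE 0.38, adjusted p = 0.727), or 0.81 without control 3. Borcs6, a subunit of the complex that positions lysosomes, stood at 3.84 to 4.74 and 5.49 to 7.16 (0.49, SE 0.14). Nop53, a ribosome biogenesis factor, stood at 3.93 to 5.27 and 6.14 to 7.54 (0.46, SE 0.18), and Prob1 at 2.77 to 3.82 and 4.04 to 6.04 (0.48, SE 0.21), with 0.35 (unadjusted p = 0.0733) for Prob1 after median-ratio scaling. Mir8094 had 0.73 (SE 0.32), or 0.61 (unadjusted p = 0.0593) after median-ratio scaling, but this hairpin lies within Ddx39b on the same strand, so its reads cannot be told from those of that gene.

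The effect in females was compared with that in males by the difference of the effects. By limma on TPM 0 of 8059 genes passed (0%), while 175 (2.17%) reached 0.05 before adjustment. On recovered reads 0 genes passed by limma voom. For Kl the difference of effects was 0.68 (SE 0.33, unadjusted p = 0.0527, adjusted p = 1.0). Mgst1, a microsomal glutathione transferase, had -0.10 in females (SE 0.14) and 1.03 in males, with a difference of -1.13 (SE 0.20, adjusted p = 0.269). Slc7a12, an amino acid transporter, had -0.25 in females (SE 0.20) and 1.14 in males (difference -1.39, SE 0.28, adjusted p = 0.733). A difference between the sexes was thus not detected for these genes after adjustment. Mdk differed by -0.39 in males, with a difference of effects of -0.67 (SE 0.40, unadjusted p = 0.117). Crabp1 in males averaged 0.0942 RPM in controls and 2.58 in KlKl, and its difference of effects on reads had an unadjusted p of 0.267.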

How the data were processed

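The authors deposited 1 table of TPM for 16 kidney libraries, made with Partek on mm39 per the submitters' processing notes; for the aligner and the counting rule, strand included, the answer is not given in the sources used here. Tested on the values, each TPM is (reads + 0.0001) divided by gene length from start to end, scaled to a fixed total, so genes with long introns get small values and reads could be recovered (81.2% of values under 20 reads were whole within 0.1 reads). A gene was kept if at least 4 of the 16 libraries had it at a TPM of 1 or above (8059 genes), and fitted by limma 3.58.1 in R 4.3.3 on log2(TPM + 1), with group means over all 16 libraries, 12 residual degrees of freedom and a mean-variance trend. P-values were adjusted by the Benjamini-Hochberg method over all tested genes, with a threshold of 0.05. Limma voom on recovered reads (17648 genes with at least 10 in 4 libraries) was the main alternative. The fits were tested on simulated data with 200 genes changed in the female comparison. At log2 changes of 0.5, 1 and 2, limma on TPM recovered 16.4%, 74.6% and 92.4% over 8237 genes. Voom recovered 1.49%, 61.2% and 100% over 17532, so differences of 0.5 or less mostly go uncalled. The simulation had independent noise, no outlying library and no changed genes of low level, and many changed genes ease the adjusted threshold. Larger differences can therefore go uncalled in the real data more often than these shares show. There Cyp24a1 (1.8), Serpina1a (1.5) and Mdk (-1.1) did not pass by limma on TPM.

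The text names Kl, Xist and 2 Y-linked genes, the genes that passed on TPM or reads, per direction up to 10 genes with the largest difference among those with an unadjusted p under 0.05, a mean TPM of 2 or more in a group, no overlap and a given symbol (32 higher and 2 lower met this), up to 4 members of each of 40 pathway and 13 cell type lists, and other members where a result turns on them. The lists hold 637 genes, of which 4 needed an older symbol and 4 found none. Members, lists and rules were chosen with earlier results of these data known. Library shares were compared by exact permutation tests. Intervals for a count of 0 (3 reads) cover counting error only.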

Additional observations from a re-analysis of the deposited data

Results flagged for a closer look

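Among 240 sets of 4 libraries, 1 per gene or library measure and group, a library lay far outside the other 3 of its group in 18 (7.5%; chance gives about 5%), and 8 of the 18 were in female control 3. In female control 3 the TPM was 17.3 for Slc5a2 (50.9 to 57.2 in the other controls), 3.72 for Slc34a3 (8.39 to 8.70), 0.395 for Hmox1 (0.752 to 0.809) and 0.673 for Slc4a9, an intercalated cell bicarbonate transporter (1.79 to 1.90). There it was also 6790 for mt-Nd1 (11740 to 12420), 2437 for mt-Nd2 (7058 to 7380), 290 for mt-Nd5 (2195 to 2492) and, for the ribosomal RNA gene Rn18s, 17520 (1289 to 3149). Among other controls, Trpv5 was 0.251, Nqo1 2.41 and Alb 0.542 TPM in control 1, each above the other 3, and Cyp2a4 was 2.50 in control 4 (13.4 to 14.5 in the others). Among KlKl females, Lyz2 was 4.57 in female 1 (6.13 to 6.30 in the others), Slc34a3 9.49 in female 1 (7.77 to 7.95), Mir8094 10.7 in female 2 (5.63 to 5.95), mt-Nd1 11240 in female 2 (10270 to 10380), Rxra 0.655 in female 3 (0.488 to 0.50) and Fgfr3 1.63 in female 4 (2.25 to 2.27).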

How the results depend on the processing

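Kl kept its direction in every setting that tested it, from -1.64 to -2.02 when single libraries were left out, and stayed past the threshold except with a replicate block (-1.87, adjusted p = 0.0635) and with the female libraries alone (-1.87, adjusted p = 0.0518). Whether the replicate numbers pair the samples was not settled. Same-numbered control and KlKl females correlated in their deviations by -0.0805 to 0.127, and differently numbered ones by -0.259 to 0.178. So few libraries cannot show whether samples share a litter or batch. Under the block 0 genes passed. The count of genes passing was 1, and it was 0 with the female libraries alone and with a mean TPM of 5 or more, where Kl was not tested. It was 3 with no filter (Crabp1, Gm20539 and Kl), 9 with library weights, whose estimation did not converge, and 2 with the 7 females other than control 3 alone, where Kl missed the filter and Cyp24a1 and Mdk passed. Voom on reads gave 2 in each of 3 forms, of which the fits without female control 3 and with females alone were added after seeing the data, like the leave-one-out of Crabp1. Without single libraries the count was 1 to 2, with Cyp24a1 added without male KlKl replicate 3 and H3f3c without female control replicate 1. The count for the difference between the sexes was 0, or 8 with library weights, and 0 to 2 without single libraries, with 2 without female control replicate 4 or without male KlKl replicate 3. Of list medians under the alternatives 49 moved by more than the spread between libraries and 1523 did not. Low depth of female control 3 and a pseudocount of 1 limit what can be seen in genes with long introns.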
